A study of Zea mays with 4 samples.

Results

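Transcripts of 8 maize genes for enzymes that shape starch were followed in the starchy endosperm, the storage tissue inside the kernel, in its central portion. They are 3 starch branching enzyme genes (sbe1, sbe2a and ae1), 4 debranching enzyme genes (su1, iso2, iso3 and zpu1) and 1 starch phosphorylase gene (pho1), taken by their gene model identifiers from 110028 models. All 8 were found in every library. The plants were of the inbred line B73, grown in a greenhouse and self-pollinated, and the tissue came from kernels at 6 days after pollination (DAP) by laser-capture microdissection. RNA was DNase-treated and amplified before sequencing. There is 1 group of 4 replicate libraries, so the comparisons are between genes within a library and between libraries. Whether these are separate plants, ears or kernels is not stated in the labels, so the spread between them may be technical.

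Amylopectin, the branched part of starch, is made from chains that starch synthases extend. Branching enzymes cut a glucan chain and join the piece to another chain as a side branch. Debranching enzymes remove misplaced branches, with the isoamylase type (su1, iso2, iso3) and the pullulanase type (zpu1) acting on different branched glucans, and plastidial starch phosphorylase can lengthen or shorten chains at their ends. In maize, kernels that lack ae1 have high-amylose starch, and kernels that lack su1 are the classic sweet corn with soluble phytoglycogen.

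Levels are reads per 1000000 reads counted on gene models (RPM). Recovered depth ran from 3432952 reads (replicate 1) to 5477465 reads (replicate 4), so 3 reads stand for 0.874 RPM in the shallowest library and 0.548 RPM in the deepest. Transcript lengths were not used here, so a ratio between genes is a ratio of reads, not of molecules, and a longer transcript gives more reads. The tissue label was checked against marker genes. Of 8 models of starchy endosperm regulators, 6 averaged 1 RPM or more, and they summed to 2790, 2317, 2253 and 1586 RPM in replicates 1 to 4. Most of this was fl3, lowest in replicate 4 at 1400 RPM against 2107 to 2674 RPM in the others. Replicate 4 was highest for nkd1, at 44.0, 44.8, 69.6 and 105 RPM in replicates 1 to 4, and for nkd2, at 14.0, 22.5, 23.3 and 27.2 RPM, while o2, a regulator of storage protein genes, was at 0. The 10 transfer layer models each had reads in at least 1 library, and 9 of them averaged 1 RPM or more. The summed level of all 10 was 303, 615 and 516 RPM in replicates 1 to 3 but 68.1 RPM in replicate 4. In replicates 1 to 3 most of this was betl2, at 191, 436 and 329 RPM. In replicate 4 betl2 had 27.2 RPM and betl3 was at 0. The transfer layer model ebe1 did not fall with them, at 26.2, 22.1, 25.9 and 27.2 RPM in replicates 1 to 4. The 4 models of the embryo-surrounding region summed to 32.6 to 45.3 RPM in replicates 1 to 3 and to 2.01 RPM in replicate 4. In the aleurone list, 4 of 6 models were present and summed to 109 to 135 RPM, with r1 and c1 at 0. The embryo list summed to 25.6, 26.3, 32.0 and 46.6 RPM in replicates 1 to 4, with lec1, glb2 and wox5b at 0. Only 2 of its 8 models averaged 1 RPM or more, and they made up nearly all of the sum. These were ole1, at 13.4, 13.4, 19.6 and 24.1 RPM, and wox2a, at 11.7, 12.7, 12.0 and 21.4 RPM. Maternal and green tissue markers stayed at or below 1.46 RPM in sum, with rbcs1 and bde1 at 0. Replicate 4 stands apart, and values without it are given beside the results that it moves most.

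Of the 8 genes, 6 averaged 1 RPM or more, as did 19.3% of all models, and the same 6 reached 1 RPM in every library, against 16.9% of all models. All 6 averaged over 10 RPM, against 10.2% of all models. In order of mean RPM they were ae1, su1, pho1, zpu1, sbe1 and sbe2a, followed by iso2 and iso3 below 1 RPM, although sbe2a, with 231 reads over all libraries, had slightly more reads in total than sbe1, with 224. The median of the 8 was 13.4 RPM, and that of the 16516 models kept for testing, a set without iso2 and iso3, was 18.1 RPM. Fewer cells with a transcript and less of it per cell cannot be told apart in these bulk samples.

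**Figure D1:**
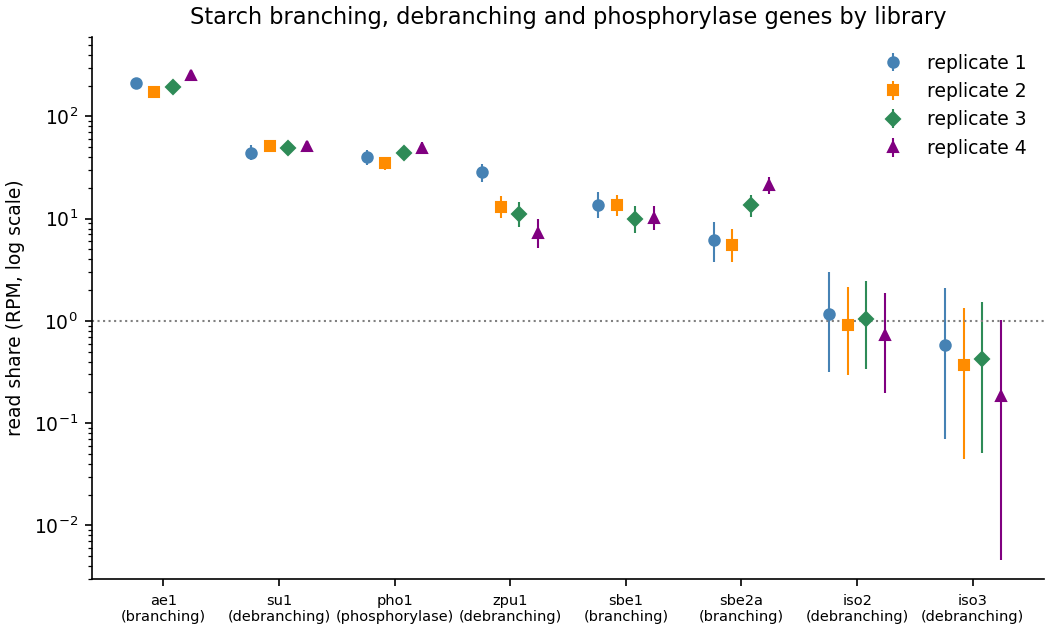
Read share of each gene (RPM, log scale) in each of the 4 libraries, in order of mean level. Bars are exact 95% Poisson intervals of the reads and the dotted line marks 1 RPM. The ae1 points lie between 174 and 256 RPM, sbe2a and zpu1 are spread most among the 6 genes above 1 RPM, and iso3 lies below 1 RPM in all 4 libraries.

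Among the branching enzymes, ae1 took most of the reads. This gene (GRMZM2G032628) encodes branching enzyme IIb, the main branching isoform of the maize endosperm, and had 212, 174, 195 and 256 RPM in replicates 1 to 4, a mean of 209 ± 34.6 RPM (SD, n = 4). Replicate 4 was highest and replicate 2 lowest, a range of 1.47-fold. These levels rest on 728 to 1400 reads per library, so the 95% Poisson interval is narrow, 163 to 185 RPM in replicate 2 and 242 to 269 RPM in replicate 4. Without replicate 4 the mean was 194 RPM. The RefSeq table lists this model as ae1 and SBEIIb and also under the name SBE1, but it is a different model from sbe1 below.

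The gene sbe1 (GRMZM2G088753), for branching enzyme I, which prefers to transfer longer chains, had 13.7, 13.6, 9.88 and 10.2 RPM, a mean of 11.9 ± 2.09 RPM (SD, n = 4). Replicates 1 and 2 were the higher pair, and the Poisson intervals of all 4 libraries overlap. RefSeq lists this identifier, together with GRMZM2G088737, under 2 neighbouring genes, so reads of sbe1 may be divided between the models. GRMZM2G088737 had 22.1, 19.2, 13.3 and 16.4 RPM in replicates 1 to 4, which is 1.34 to 1.62 times the reads of GRMZM2G088753. Both models together had 29.6 ± 5.76 RPM (SD, n = 4), which would place sbe1 above zpu1 in the order if both count sbe1. Only 1 of the 2 RefSeq genes carries the name sbe1, so GRMZM2G088737 may instead count reads of the other gene.

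In contrast to ae1 and sbe1, the leaf-type isoform sbe2a (GRMZM2G073054), branching enzyme IIa, varied widely. It had 6.12, 5.53, 13.5 and 21.2 RPM in replicates 1 to 4, from 21, 30, 64 and 116 reads. Replicates 1 and 2 were low and nearly equal, replicate 3 was higher and replicate 4 highest, with Poisson intervals in the low pair (3.73 to 9.35 RPM) that do not reach those of replicate 3 (10.4 to 17.2 RPM) or replicate 4 (17.5 to 25.4 RPM). The range was 3.83-fold, the mean 11.6 ± 7.35 RPM (SD, n = 4) and the mean without replicate 4 was 8.37 RPM. The name sbe2a, like su1, comes from the list of identifiers, since the RefSeq table does not hold these models. A further branching enzyme gene, sbe3 (GRMZM2G005298), had 3.79, 3.32, 3.58 and 3.29 RPM.

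Within the 3 branching genes, ae1 held 91.5%, 90.1%, 89.3% and 89.1% of reads in replicates 1 to 4, a mean of 90.0 ± 1.08% (SD, n = 4). This share moved little, while sbe1 and sbe2a changed places in the order. The share of sbe2a in the reads of sbe1 and sbe2a was 30.9% (exact 95% binomial interval 20.2 to 43.3%) and 28.8% (20.4 to 38.6%) in replicates 1 and 2. In replicates 3 and 4 it was 57.7% (47.9 to 67.0%) and 67.4% (59.9 to 74.4%), so the intervals of these libraries do not overlap those of the first pair. A share of this kind does not change with library scaling, and the lengths of the transcripts, being constant, do not change its order across libraries. With GRMZM2G088737 added to sbe1, sbe1 exceeded sbe2a in all 4 libraries, by a mean log2 ratio of 1.50 ± 1.12.

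Among the debranching enzymes, su1 (GRMZM2G138060), the sugary1 isoamylase, was the main source of reads and the steadiest of the 6 more abundant genes. With library totals it had 44.3, 51.6, 49.4 and 50.9 RPM, a mean of 49.1 ± 3.31 RPM (SD, n = 4). The highest of these libraries was 1.16-fold above the lowest. With TMM sizes su1 ran more widely, from 42.7 RPM in replicate 1 to 54.8 RPM in replicate 4, with an SD of 4.98 RPM. The Poisson intervals of all 4 libraries overlap.

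The pullulanase-type gene zpu1 (GRMZM2G158043) had 28.3, 13.1, 11.1 and 7.30 RPM in replicates 1 to 4, from 97, 71, 53 and 40 reads. Replicate 1 stood highest, and its Poisson interval (22.9 to 34.5 RPM) lies above those of the other libraries, which together span 5.22 to 16.5 RPM. Its range was 3.87-fold, its mean 14.9 ± 9.19 RPM (SD, n = 4) and its mean without replicate 1 was 10.5 RPM. Of the reads of zpu1 and su1 together, zpu1 took 39.0% (exact 95% binomial interval 32.9 to 45.3%) in replicate 1, 20.2% (16.1 to 24.8%) in replicate 2, 18.4% (14.1 to 23.4%) in replicate 3 and 12.5% (9.11 to 16.7%) in replicate 4. Replicate 1 is again separate from the others, and the intervals of the other 3 overlap at least in part.

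The remaining isoamylase genes were near the limit of detection. The product of iso2 (GRMZM2G090905) is a partner of the su1 protein in a shared complex and has no known activity of its own. It had 1.17, 0.921, 1.05 and 0.730 RPM, from 4 or 5 reads per library. For iso3 (GRMZM2G150796), an isoamylase linked to starch breakdown in other plants such as Arabidopsis, there were 0.583, 0.368, 0.421 and 0.183 RPM, from 1 or 2 reads per library. Over all libraries iso2 had 18 reads (0.943 RPM, 95% Poisson interval 0.559 to 1.49) and iso3 had 7 reads (0.367 RPM, 0.147 to 0.755). These intervals overlap in part, which does not by itself decide the order of this pair. In all 4 libraries iso2 had more reads, but the order rests on few reads. Together the reads of iso2 and iso3 were a small part of the debranching reads: the iso2 share was 1.23 to 1.69% and the iso3 share 0.309 to 0.784%.

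The plastidial phosphorylase gene pho1 (GRMZM2G074158) had 39.9, 35.0, 44.0 and 49.5 RPM in replicates 1 to 4, a mean of 42.1 ± 6.14 RPM (SD, n = 4). Replicate 4 was highest and replicate 2 lowest, the same libraries as for ae1. Its share of the reads of all 8 genes was 11.5%, 11.9%, 13.5% and 12.5%, and all 4 exact binomial intervals overlap. The log2 ratio of ae1 to pho1 was 2.40, 2.30, 2.14 and 2.36 in replicates 1 to 4, with an SD of 0.11, and the class sum of branching reads over pho1 had an SD of 0.10. Apart from iso2 against iso3, which rests on few reads, no other pair of the 8 genes had a smaller SD than ae1 and pho1.

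Branching reads exceeded debranching reads in every library. The summed level of the 3 branching genes was 232, 193, 219 and 287 RPM in replicates 1 to 4, a mean of 233 ± 39.6 RPM (SD, n = 4). For the 4 debranching genes it was 74.3, 66.0, 62.0 and 59.2 RPM, a mean of 65.4 ± 6.57 RPM (SD, n = 4). The class sums do not overlap between classes, and the ratio was 3.12, 2.93, 3.53 and 4.85 in replicates 1 to 4. On the log2 scale, with 0.5 RPM added, the mean ratio was 1.81 ± 0.32, above 0 in 4 of 4 libraries (two-sided exact sign-flip permutation p = 0.125). With 4 libraries no smaller p is possible, so this design cannot reach 0.05.

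The share of branching reads in both classes was 75.7% (exact 95% binomial interval 73.03 to 78.3%), 74.5% (72.2 to 76.8%) and 77.9% (75.6 to 80.1%) in replicates 1 to 3. It was 82.9% (81.1 to 84.6%) in replicate 4, above the intervals of the other 3. Replicate 4 is also the library with the lowest summed levels of transfer layer and embryo-surrounding region markers. The part of these tissues in this difference was not tested. Without replicate 4 the mean log2 ratio was 1.66 ± 0.14, still above 0 in 3 of 3 libraries.

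The excess of branching reads rested on ae1. With sbe1 and sbe2a alone, the branching class stood at 19.8, 19.2, 23.3 and 31.4 RPM, below the debranching class in all 4 libraries, with a mean log2 ratio of -1.48 ± 0.44 (exact permutation p = 0.125). Leaving zpu1 out, so that only isoamylase-type genes were counted, gave 46.0, 52.9, 50.9 and 51.8 RPM and a mean log2 ratio of branching to debranching of 2.18 ± 0.26. The summed debranching level was highest in replicate 1, the library with most zpu1, and the isoamylase-type sum was lowest there.

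**Figure D2:**
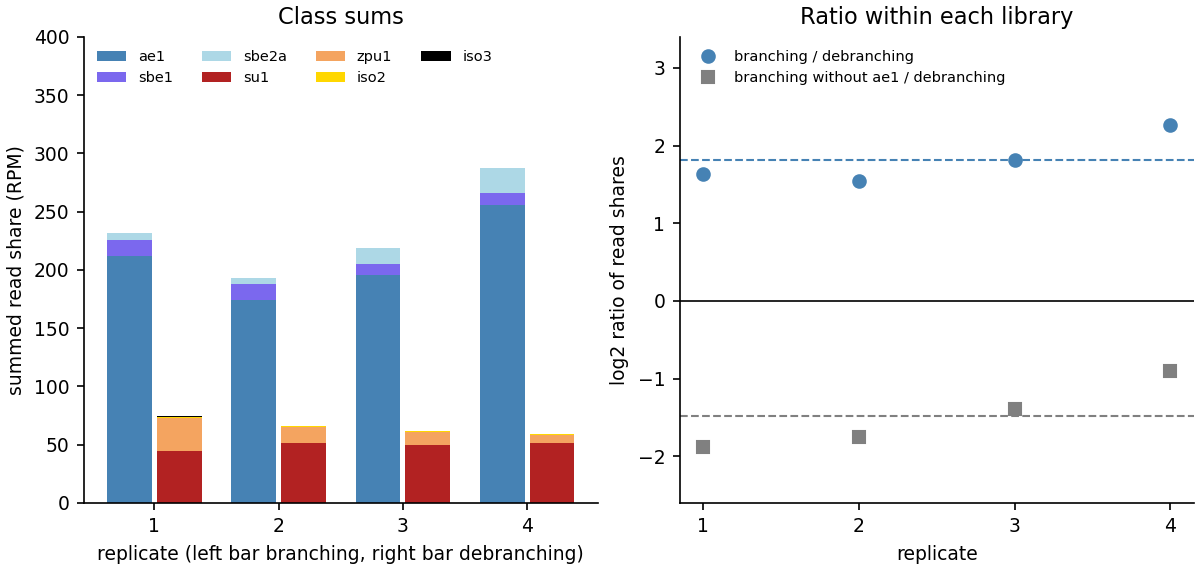
Left, summed read share (RPM) of the branching genes (left bar of each pair) and the debranching genes (right bar), stacked by gene, in each library. Right, log2 ratio of the class sums within each library (points) and its mean (dashed lines), with all 3 branching genes (circles, mean 1.81) and without ae1 (squares, mean -1.48); 0 marks equal reads.

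All 28 pairs of the 8 genes were compared within libraries by their log2 ratio of reads, and 25 held the same sign in all 4 libraries. None could pass 0.05, since the smallest exact permutation p was 0.125 (0.14 after Benjamini-Hochberg adjustment over the 28 pairs). Between neighbours in the order, ae1 exceeded su1 by 2.07 ± 0.26 and pho1 exceeded zpu1 by 1.62 ± 0.92. The gap from su1 to pho1 was 0.23 ± 0.22, positive in 4 of 4 libraries but as small as 0.04 in replicate 4, so this pair was separated by little more than its spread. The 3 pairs among zpu1, sbe1 and sbe2a had mixed signs, with mean log2 ratios of 0.17 ± 0.62 for zpu1 to sbe1, 0.22 ± 1.12 for sbe1 to sbe2a and 0.39 ± 1.58 for zpu1 to sbe2a, so their order is not set beyond the spread between libraries.

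The ratio of zpu1 to sbe2a moved most of all 28. On the log2 scale it was 2.12, 1.17, -0.26 and -1.47 in replicates 1 to 4, so zpu1 had more reads than sbe2a in replicates 1 and 2 and fewer in replicates 3 and 4. Its 2 genes belong to opposite classes, and neither is the main gene of its class by reads.

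**Figure D3:**
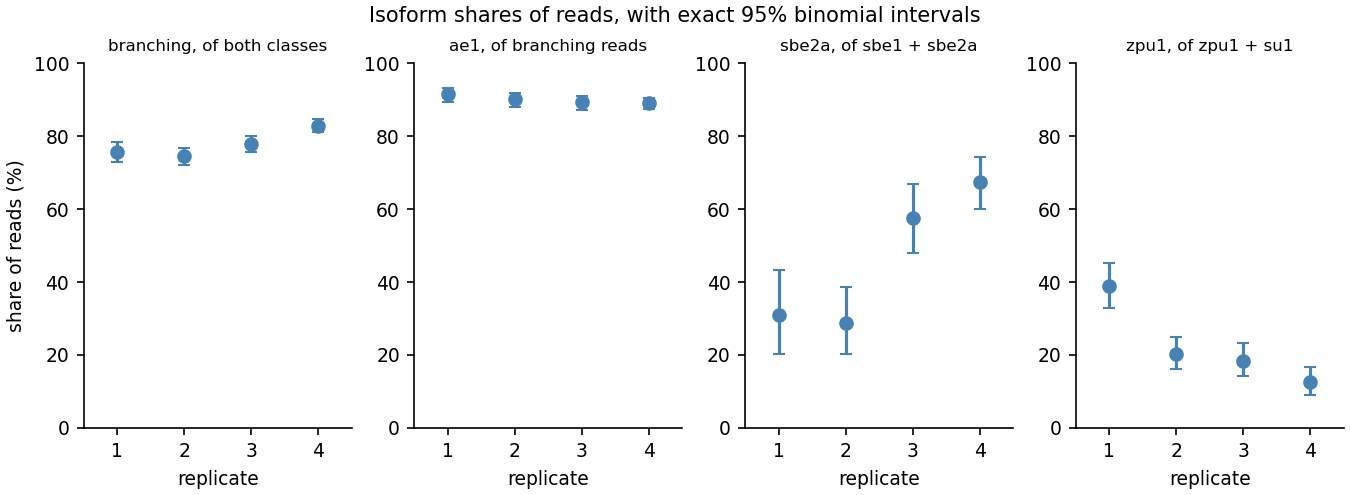
Share of reads (%) in each library, with exact 95% binomial intervals that cover counting error only. The branching share of both classes runs from 74.5 to 82.9% and the ae1 share of branching reads from 89.1 to 91.5%, while sbe2a runs from 28.8 to 67.4% of the reads of sbe1 and sbe2a and zpu1 from 12.5 to 39.0% of the reads of zpu1 and su1.

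Whether the genes differed between libraries beyond counting error was examined with chi-square statistics on the recovered reads, scaled by TMM library sizes, and p-values were adjusted by Benjamini-Hochberg over all 16516 models that passed the filter on low counts. This called 44.3% of all these models. Of the 8 genes, 6 were tested and 4 were called, and 6 genes are too few to set that count apart from the background. The called genes were ae1 (adjusted chi-square p = 2.1e-32), sbe2a (2.87e-16), zpu1 (1.43e-12) and pho1 (6.54e-05). The levels of su1 (0.169) and sbe1 (0.434) were not called, and iso2 and iso3, which did not pass the filter, were not called without it either, where 20.7% of 37643 models were called. Without replicate 4, when 17.4% of models were called, sbe2a (0.000151), ae1 (0.000818) and zpu1 (6.21e-08) were still called and pho1 (0.13) was not. Without replicate 1, when 40.2% of models were called, zpu1 (0.11) was not called. The same 4 genes were called without replicate 2 (37.1% of models), without replicate 3 (40.9%), with DESeq2 size factors (44.5%) and with library totals (45.8%). With no filter, all 4 were called without replicate 3 (20.0% of models), and sbe2a, ae1 and zpu1 without replicate 4 (7.87%). The test compares these libraries, not conditions. It takes each read as an independent count, while amplified reads are not independent molecules, so its p-values may be too small.

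A call of this kind follows the number of reads, so the size of the spread was also set against other genes. Levels here were scaled by library totals, and the spread was not ranked again with TMM sizes. The SD of log2 levels over the 4 libraries was 0.88 for sbe2a and 0.79 for zpu1. Of the 11272 models at a mean of 10 RPM or more, 98.7% had a smaller SD than sbe2a and 98.2% a smaller SD than zpu1, and the median of all of them was 0.22. Among models within 1.5-fold of the same mean level the figures were 97.8% and 97.6%. Single libraries set part of this spread. Without replicate 1 the SD of zpu1 fell to 0.41, with 72.3% of the models near its level below it, and its range to 1.79-fold. Without replicate 4 the SD of sbe2a was 0.66, with 97.1% of the models near its level below it, and its range was 2.44-fold, while zpu1 had an SD of 0.70 and stood at 99.1%. In contrast, su1 had an SD of 0.10, with 12.5% of the models near its level below it (34.9% without replicate 4), and sbe1 (0.25), ae1 (0.23) and pho1 (0.21) lay at 39.2%, 72.1% and 52.1%. A highest library at least 2-fold above the lowest was seen for 2 of the 6 genes at 10 RPM or more, sbe2a and zpu1, and for 11.6% of all models at that level. It was seen for sbe2a alone without replicate 1 (9.08% of models) and for both without replicate 4 (2.2% of models).

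**Figure D4:**
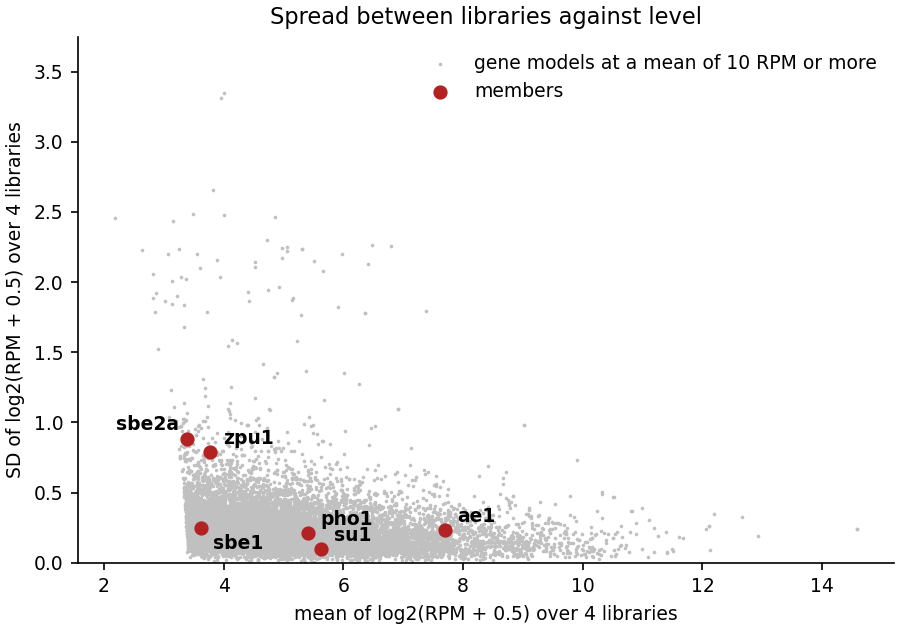
SD of log2(RPM + 0.5) over the 4 libraries against its mean, for the 11272 gene models at a mean of 10 RPM or more (grey) and the 6 members among them (red). The points of sbe2a (0.88) and zpu1 (0.79) lie above most models of a like level, and su1 (0.10) lies below most models of its level.

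Replicate 4 lay outside the range of replicates 1 to 3 for 4 of the 6 genes at 10 RPM or more, and for 71.4% of all models at that level. It was above that range for ae1, sbe2a and pho1, as for 26.8% of all models at that level, and below it for zpu1, as for 44.6%. The positions of su1 and sbe1 in replicate 4 were within the range when scaled by library totals, but that of su1 depends on scaling. With TMM sizes su1 had 54.8 RPM in replicate 4, above the highest other library at 49.8 RPM. So 5 of the 6 genes then lay outside (71.5% of models), 4 of them above (39.7%) and zpu1 below (31.8%). DESeq2 size factors gave the same 5 (71.9% of models outside). The Poisson interval of pho1 in replicate 4 (43.8 to 55.7 RPM) overlaps those of replicates 1 and 3. Replicate 4 also had the lowest transfer layer and embryo-surrounding region sums and the highest embryo sum given above, and the part of these tissues in the positions of the 4 genes was not tested. TMM sizes in place of library totals raised the level of ae1 in replicate 4 from 256 to 275 RPM and that of sbe2a from 21.2 to 22.8 RPM.

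Other starch genes were taken from lists of 48 symbols, of which 13 matched a model and gave 11 different models, with a median of 3.49 RPM. A mean of at least 1 RPM was reached by 7 of them and a mean of at least 10 RPM by 4. Among starch synthases, du1 stood at 97.6 ± 3.48 RPM and ss1 at 27.4 ± 3.42 RPM (SD, n = 4), and wx1, for the granule-bound starch synthase, was at 0. On the list for ADP-glucose supply, the models named agp2 had 107 ± 33.0 RPM (GRMZM2G106213) and 41.1 ± 9.60 RPM (GRMZM2G027955), agpsl1 had 5.25 ± 1.06 RPM and the transporter gene bt1 was lowest at 0.144 ± 0.178 RPM. One model, GRMZM2G058310, carries the names amy2, bmy1 and amyb5 of starch-degrading amylases, at 3.50, 0.737, 1.26 and 0.548 RPM in replicates 1 to 4. Among the 11 models 6 were tested and 4 were called between libraries, against the 44.3% of all models given above; these were both agp2 models, ss1 and du1. With no filter 4 of 10 were called, against 20.7% of all models, and GRMZM2G058310 took the place of du1, whose adjusted chi-square p moved from 0.0299 to 0.0562. The agp2 model GRMZM2G106213 had 126, 138, 99.9 and 63.2 RPM, lowest in replicate 4, where ae1 and pho1 were highest.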

How the data were processed

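Per the labels, amplified poly-A RNA of 4 barcoded libraries was sequenced in 1 lane. The deposited values are a signal per gene model, scaled by the authors so that every library sums to 4773346, as the values themselves show. The submitters' processing notes name bedtools, without its role. The strand setting, genome build, annotation and aligner were not given in the sources used here. All values were whole multiples of 1 step per library within 0.01 of a read, so reads were recovered. In replicate 3 the step was close to 1, at 1.00392, and the largest deviation from a whole multiple was 3.13e-05 of a read. Tests are also given without this library. RPM used library totals, and log values log2(RPM + 0.5).

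The planned division by coding length was not possible, as no lengths were used here; ratios are of reads. RefSeq names came from assembly Zm-B73-REFERENCE-NAM-5.0, which lists 6 of the 8 models. Tests used edgeR 4.0.16 (TMM sizes, filterByExpr), DESeq2 1.42.0 (size factors only) and Python 3.11.15. Only the chi-square test with TMM sizes was checked on simulated data. The simulated reads had counting error only, apart from genes changed on purpose. Detection was set at 1 RPM, and adjusted p under 0.05 was called. Poisson and binomial intervals (exact, 95%) cover counting error only, since amplified reads are not independent molecules.

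The genes and lists were chosen with earlier results of these data known. Named genes are the 8 members, the 3 highest and the lowest of each pathway list, and sbe3. The entry mrp1 was left out, since RefSeq also gives its model an unrelated name. Markers at 0, fl3, nkd1, nkd2, betl2, betl3, ebe1, ole1 and wox2a, and models sharing a RefSeq gene with a member are also named. No gene was named for a like pattern, as 4 libraries are too few for a correlation. Alternatives were other pseudocounts, scalings, filters, class definitions and leaving out each replicate; the spread without each replicate, the position of replicate 4 under other scalings and the added sbe1 model were chosen after seeing the data.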

Additional observations from a re-analysis of the deposited data

How the results depend on the processing

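The mean log2 ratio of branching to debranching reads, 1.81, changed direction to -1.48 when ae1 was left out of the branching class, by construction, as ae1 holds most of the branching reads. It kept its direction under the other alternatives, with 1.82 and 1.81 at pseudocounts of 0.1 and 1 RPM, 2.18 without zpu1 and 1.92 with GRMZM2G088737 added to sbe1, an alternative chosen after seeing the data. Leaving out each replicate gave 1.66 to 1.90. The alternative of dividing by length was not run; the ratios themselves are undivided. Of 28 pairs, 25 held 1 sign in all libraries under every pseudocount and left-out replicate, and 27 did with GRMZM2G088737 added. The 3 pairs with mixed signs turned with a left-out replicate. Over these, the log2 ratio of zpu1 to sbe1 ran from -0.12 (without replicate 1) to 0.38 (without replicate 4), that of zpu1 to sbe2a from -0.19 to 1.01 (the same libraries), and that of sbe1 to sbe2a from -0.07 and -0.11 (without replicates 1 and 2) to 0.63 (without replicate 4); zpu1 to sbe1 was -1.11 with GRMZM2G088737 added, which raises sbe1 by construction. The cause of the other changes was not tested. Between libraries 4 members were called with TMM sizes (44.3% of all models tested), DESeq2 size factors (44.5%) and library totals (45.8%). The same number was called without the filter (20.7%), without replicate 2 (37.1%) and without replicate 3 (40.9%). Without replicate 1 (40.2%) or replicate 4 (17.4%), 3 members were called. Over all models, 7314 of 16516 tested were called, and 2955 of 16943 without replicate 4. Without both replicate 4 and the filter, 2834 of 36018 were called (7.87%). The summed level of the 8 genes, 340.1 RPM, lay between 321.6 and 355 RPM under other scalings and with each replicate left out. With 1 group there are no groups to pair by replicate number, and the ratios within libraries are paired by construction. Depth limits iso2 and iso3, with at most 5 reads per library.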
